A study of Homo sapiens with 6 samples.

Results

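The transcripts of Mediator, of RNA polymerase II and of the general transcription factors were followed in RNA that came down with tagged Stau1 from mitotic human cells. A target of the array belonged to this set when its gene symbol was MED or TAF followed by a digit, or began with POLR2 or GTF2. The rule used names and no measured value, and it found 83 of the 37879 targets. They comprised 26 Mediator subunits, 13 RNA polymerase II subunits and related copies, 25 TAFs and 19 targets whose symbols begin with GTF2.

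RNA polymerase II transcribes the protein-coding genes, and it needs the general factors TFIIA, TFIIB, TFIID, TFIIE, TFIIF and TFIIH to find a promoter, to open the DNA and to start. TFIID consists of the TATA-binding protein and the TAFs. Mediator is a large complex with a head, a middle, a tail and a detachable kinase module, and it passes signals from activators at enhancers to the polymerase. Transcription is largely silenced in mitosis. The arrays read the messages that encode these proteins, not the proteins or their activity. The symbols also took in TAF1A to TAF1D, which serve RNA polymerase I in the SL1 complex, and the TFII-I family, which is named as a general factor but binds DNA as a sequence-specific regulator.

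The 3 control IPs came from HEK293T cells, an established human embryonic kidney line, that had received the empty vector. The 3 Stau1 IPs came from cells given plasmids for Stau155-FLAG, an isoform of the double-stranded RNA-binding protein Staufen1 with a FLAG tag. Every culture was held in prometaphase by 50 ng/ml of nocodazole, a microtubule poison, for 15 h according to the labels. Every IP used the anti-FLAG antibody. The control cells make their own Stau1, but it carries no FLAG tag, so their IPs serve as background. RNA was hybridized on Illumina BeadChips, and the comparison asks which transcripts copurify with Stau1.
The sources do not say whether replicates were separate cultures, so p-values measure the spread between these arrays, which may be technical. Input RNA is not analysed here. From the IPs alone, a lower level of a transcript in the cells and a weaker recovery with the antibody cannot be told apart. The paper compared total RNA of prometaphase cells with vector or Stau155-FLAG and reports that their transcriptome did not change to a large extent.

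The deposited value is the mean bead signal of a target on a linear scale, without background subtraction or normalization. The median signal was between 87.9 and 102 on the 6 arrays, the median number of beads behind a value was 41, and between 11635 and 13054 targets were detected on each array (detection p under 0.05, against the negative controls of that array). With 3 arrays in a group, precision is set by the number of arrays. All 5 mitotic markers looked up (CCNB1, CDC20, PLK1, AURKA and BUB1) were detected on all 6 arrays, and all 4 markers of other cell types (PTPRC, CD3E, ALB and HBB) on 0. STAU1 itself read 2499, 3246 and 2758 on the control IPs and 2845, 1857 and 3130.1 on the Stau1 IPs. Its groups overlapped, and the position of its probe in the message is not given in the sources used here, so it does not check the transfection.

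The array labelled Stau1 IP 2 stood apart from the others of its label over the members. Over the 62 members detected on all 6 arrays, the Pearson correlation of normalized log2 levels was 0.992 between Stau1 IP arrays 1 and 3, but 0.905 between Stau1 IP arrays 1 and 2 and 0.921 between 2 and 3. The array labelled Stau1 IP 2 correlated at 0.933, 0.943 and 0.97 with control IP arrays 1, 2 and 3. The array labelled control IP 2 did not stand apart over the members, with correlations of 0.973 and 0.982 with control IP arrays 1 and 3, which had 0.968 with each other. It correlated at 0.966 and 0.972 with Stau1 IP arrays 1 and 3, where control IP array 1 had 0.901 and 0.91 and control IP array 3 had 0.95 and 0.954. Over 9884 targets detected on all 6 arrays, the array labelled control IP 2 had 0.983 and 0.984 with Stau1 IP arrays 1 and 3. With control IP arrays 1 and 3 it had 0.977 and 0.982 over the same targets. These are correlations across genes of the same arrays, and genes are not independent replicates. The labels of the arrays numbered 2 may be exchanged. They were kept, both arrays are shown singly, and each comparison is given with all 6 arrays by their labels and again without both arrays numbered 2. In what follows signals are in the order of arrays 1, 2 and 3.

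**Figure D1:**
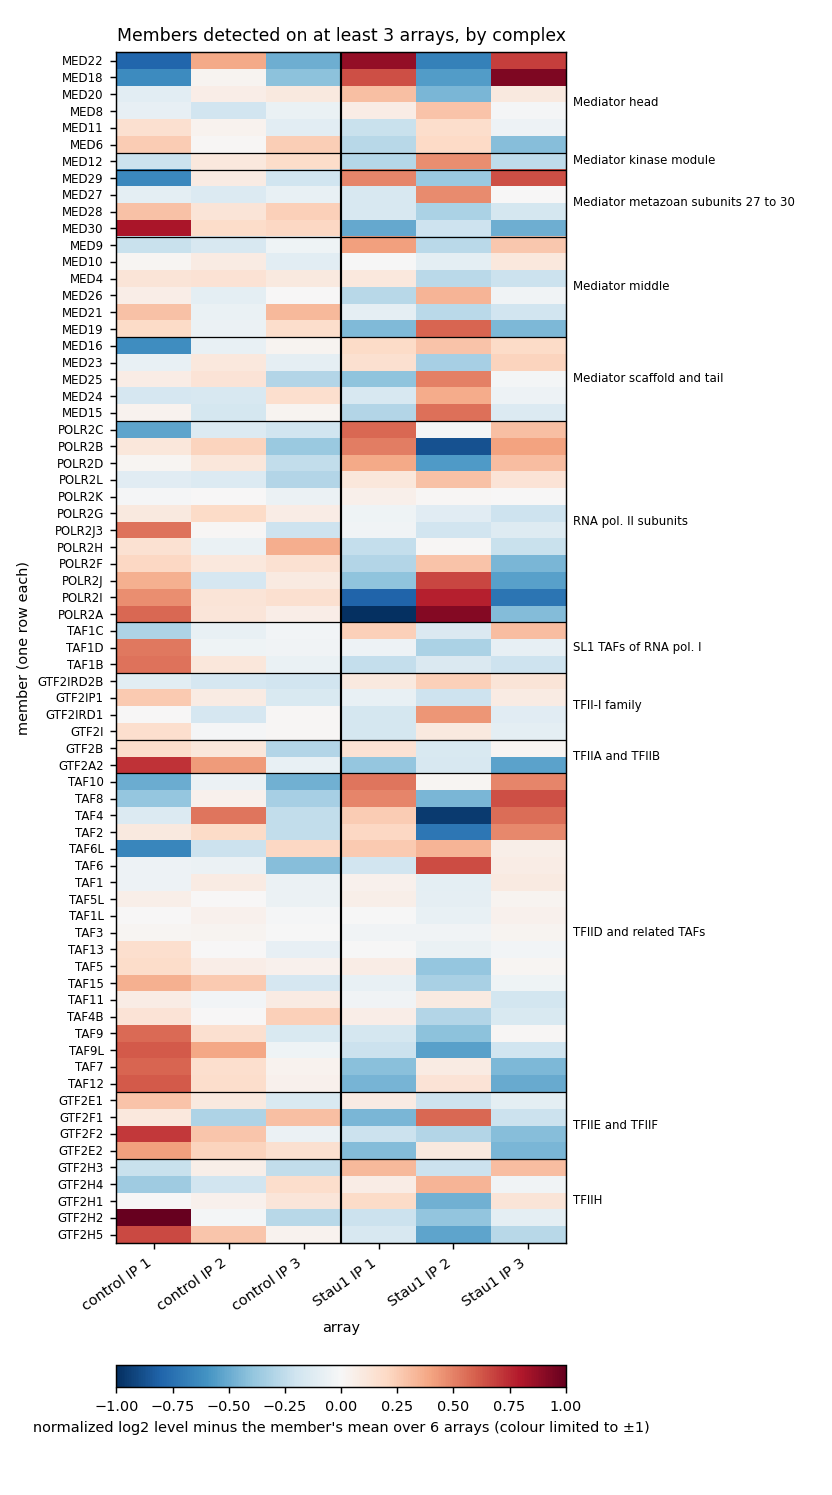
Normalized log2 level of each member detected on at least 3 arrays, minus its mean over the 6 arrays (colour), for the 3 control IP and 3 Stau1 IP arrays (columns), grouped by complex (rows). Within the Stau1 IPs, the columns of arrays 1 and 3 resemble each other, with a median absolute difference of 0.11 on the log2 scale over the members detected on all 6 arrays, and array 2 has the opposite colour in many rows, with a median absolute difference of 0.47 from array 1.

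Most of these messages were present in the IPs of both groups. Of the 83 members, 62 (74.7%) were detected on all 6 arrays, where 26.1% of all targets were, and 7 (8.43%) were detected on none, where 59.5% of all targets were. The 7 were MED12L and MED13 of the kinase module, MED31, TAF1A, the testis paralog TAF7L, the TFIIA paralog GTF2A1L, and the target named TAF9B. The other 14 were detected on 1 to 5 arrays. Between 64 and 72 members were detected on each array, the fewest on the array labelled Stau1 IP 2.

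By the labels, no member passed the threshold of the methods, a fold above 2.5 with an unadjusted p under 0.05, in either direction. Over all targets 0.00264% passed it as higher in the Stau1 IPs and 0% as lower. After Benjamini-Hochberg adjustment in limma 0 members and 0 targets passed 0.05, and the lowest adjusted p of a member was 0.175, for MED28. At an unadjusted p under 0.05, 6 members (7.23%) were higher in the Stau1 IPs, beside 3.6% of all targets, and 10 (12%) were lower, beside 5.17% of all targets. Dim targets seldom reach that level, and among targets detected on all 6 arrays the shares were 9.68% of members and 9.31% of all for higher, and 14.5% of members and 12.5% of all for lower. Normalized levels of the groups did not overlap for 6 members that were higher (7.23%, beside 6.39% of all targets) and for 12 that were lower (14.5%, beside 8.04%), and among targets detected on all 6 arrays these shares were 9.68% and 14.5% of members, beside 9.69% and 13.7% of all. The members' shares among detected targets lay near that background. The median log2 fold change of the members was -0.04 by the labels, and that of all targets 0.0016.

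Without the arrays numbered 2, 13 members passed an adjusted p of 0.05 over all targets. MED22, MED18, MED23, TAF10, TAF8 and GTF2H3 rose in the Stau1 IPs, and MED6, MED19, MED21, MED28, POLR2F, POLR2I and GTF2E2 fell. The 6 that rose are 7.23% of the members, beside 3.17% of all targets, and the 7 that fell are 8.43%, beside 2.06% of all targets. Among members detected on all 6 arrays the shares were 6.45% higher and 9.68% lower, beside 9.32% and 6.95% of all targets detected there. MED22 was the only member past the fold rule, which 0.605% of all targets passed as higher and 0.037% as lower. These calls rest on 4 arrays and on the shared estimate of spread, and 0 members passed the adjusted p with log2 of the signal plus 16 or with the methods' t-test. Leaving out Stau1 IP array 1 or 3 also left 0 calls by adjusted p, whereas leaving out control IP array 1 or 3 gave 15 and 16 higher with 14 and 23 lower. MED22 itself did not pass the fold rule without control IP array 1.

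Each member's log2 fold change understates the change of a dim message, because the normalized scale acts about as the log2 of the signal plus a constant. Levels of different members cannot be compared, since each has its own probe. The median spread among replicates was larger for these members than for all targets detected on 6 arrays, without a match for brightness. Their median SD on the log2 scale was 0.21 over the control IPs and 0.27 over the Stau1 IPs, where all targets detected on 6 arrays had 0.16 and 0.20. The value for the Stau1 IPs includes the array labelled Stau1 IP 2. Control IP arrays 1 and 2 went the other way, with a median absolute difference of 0.177 for members and 0.187 for all. The error between beads of 1 array was far smaller, with medians of 3.11% to 4.02% of the members' signal.

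In the Mediator head, which contacts the polymerase directly, MED22 (chromosome 9) fell into high and low arrays that did not follow the labels. It read 1089, 2940.3 and 1431 on the control IPs and 3833, 1221 and 3766 on the Stau1 IPs. Signals were high on Stau1 IP arrays 1 and 3 and on the array labelled control IP 2, and low on the other 3, so the groups overlapped. The log2 fold change was 0.60 (SE 0.52, adjusted p = 0.845) by the labels and 1.42 (SE 0.13, adjusted p = 0.0224) without the arrays numbered 2, a fold of 2.68.
MED18, also of the head, had the same high and low arrays, with 80.1, 180.0 and 103 on the control IPs and 281, 98.2 and 390.2 on the Stau1 IPs. It was not well above background on control IP arrays 1 and 3 or on the array labelled Stau1 IP 2. Without the arrays numbered 2 it was at least 2.44-fold higher in the Stau1 IPs (adjusted p = 0.0261).
MED6, a head subunit at the junction with the middle, ran the other way, with 7862, 6947 and 7528 on the control IPs and 5137, 8005 and 5177 on the Stau1 IPs. The lowest signals were those of Stau1 IP arrays 1 and 3, and the array labelled Stau1 IP 2 gave the highest deposited signal. Its log2 fold change was -0.34 (SE 0.18, adjusted p = 0.699) by the labels and -0.60 (SE 0.06, adjusted p = 0.0262) without the arrays numbered 2.
MED8 separated the groups by their labels with 725, 808 and 774 on the control IPs and 918, 973 and 945 on the Stau1 IPs, a log2 fold change of 0.23 (SE 0.08, adjusted p = 0.538), and its unadjusted p was 0.0403. MED20 and MED11 had log2 fold changes of -0.04 and -0.06, and their groups overlapped. Of the 6 head subunits 3 were higher and 3 lower by the labels.

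Of the 7 subunits of the Mediator middle, the hinge between head and tail, 2 fell without the arrays numbered 2. MED19 read 1513, 1447 and 1549 on the control IPs and 1027, 2156 and 1122 on the Stau1 IPs. The array labelled Stau1 IP 2 was the highest of all and the other Stau1 IP arrays were the lowest, so that its log2 fold change was -0.21 (SE 0.30, adjusted p = 0.924) by the labels and -0.63 (SE 0.03, adjusted p = 0.0119) without the arrays numbered 2. MED21, the partner of MED7 in the middle's hinge, read 168, 145 and 175 on the control IPs and 129.9, 115 and 126 on the Stau1 IPs, near background throughout. All 3 Stau1 IP arrays lay below all 3 controls, with log2 fold changes of -0.37 (SE 0.12, adjusted p = 0.454) and -0.45 (SE 0.05, adjusted p = 0.0298). MED10, another subunit of the middle, read 2476, 2884 and 2308 on the control IPs and 2513, 2407 and 3022 on the Stau1 IPs, and its groups overlapped, with a log2 fold change of 0.0024 (SE 0.07, adjusted p = 0.997).
MED9 read 503, 653 and 616 on the control IPs and 933, 438 and 926 on the Stau1 IPs. It was highest on Stau1 IP arrays 1 and 3 and lowest on Stau1 IP array 2, with a log2 fold change of 0.47 (adjusted p = 0.0805) without the arrays numbered 2. MED4 and MED26 had log2 fold changes of -0.25 and 0.02 by the labels, and neither separated the groups.

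The subunits numbered 27 to 30 are found in animals, and by the labels both members of lowest p in Mediator were among them. MED28 (chromosome 4) read 1746, 1760.2 and 1735 on the control IPs and 1345, 1114 and 1465 on the Stau1 IPs. The 3 controls were nearly equal and each Stau1 IP lay below them, also on the array labelled Stau1 IP 2. Its log2 fold change was -0.44 (SE 0.06, adjusted p = 0.175) by the labels and -0.43 (SE 0.04, adjusted p = 0.0207) without the arrays numbered 2, so that the difference was almost the same size in both fits while the call was made in 1 of them.
MED30 (chromosome 8) read 2213, 1575 and 1442 on the control IPs and 884, 1019 and 993 on the Stau1 IPs. The groups did not overlap, and the log2 fold change of -0.81 (SE 0.20, adjusted p = 0.323) was the largest in size of any member by the labels. It was -1.01 (SE 0.22, adjusted p = 0.116) without the arrays numbered 2. MED29 took the opposite direction, with 800.1, 1617 and 1188 on the control IPs and 2029, 999 and 2501 on the Stau1 IPs. Its high arrays were the same as those of MED22, and its log2 fold change was 0.51 (SE 0.33, adjusted p = 0.772) by the labels and 0.99 (SE 0.17, adjusted p = 0.0713) without the arrays numbered 2. MED27 was highest on the array labelled Stau1 IP 2 and had log2 fold changes of 0.21 and 0.0084.

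The 5 scaffold and tail subunits, through which activators reach Mediator, were all higher by the labels under each scaling, with a median log2 fold change of 0.08, but 3 of the 5 were lower without the arrays numbered 2. MED16 read 620.3, 1134 and 1088 on the control IPs and 1288, 1305 and 1426 on the Stau1 IPs. Each Stau1 IP array lay above each control, with the largest gap to control IP array 1, and the log2 fold change was 0.45 (SE 0.18, adjusted p = 0.565) by the labels and 0.49 (SE 0.23, adjusted p = 0.452) without the arrays numbered 2. MED23, which some signalling pathways use to reach Mediator, read 193, 279 and 197 on the control IPs and 267, 158 and 305 on the Stau1 IPs. It rose without the arrays numbered 2, with a log2 fold change of 0.27 (SE 0.04, adjusted p = 0.0488), and by the labels its log2 fold change was 0.04. MED25, the target of the activator VP16, read 1814, 2146 and 1424 on the control IPs and 1363, 2665 and 1992 on the Stau1 IPs, and its log2 fold changes of 0.05 and -0.10 had opposite signs. MED15 and MED24 were both highest on the array labelled Stau1 IP 2.

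In the kinase module, which holds Mediator off the polymerase, MED12 was the only member detected on all 6 arrays. This activator of the module's kinase read 254, 415 and 369 on the control IPs and 276, 395 and 308 on the Stau1 IPs, with log2 fold changes of -0.05 (SE 0.24, adjusted p = 0.982) by the labels and -0.25 (SE 0.15, adjusted p = 0.557) without the arrays numbered 2. MED13L was detected on 1 array.

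**Figure D2:**
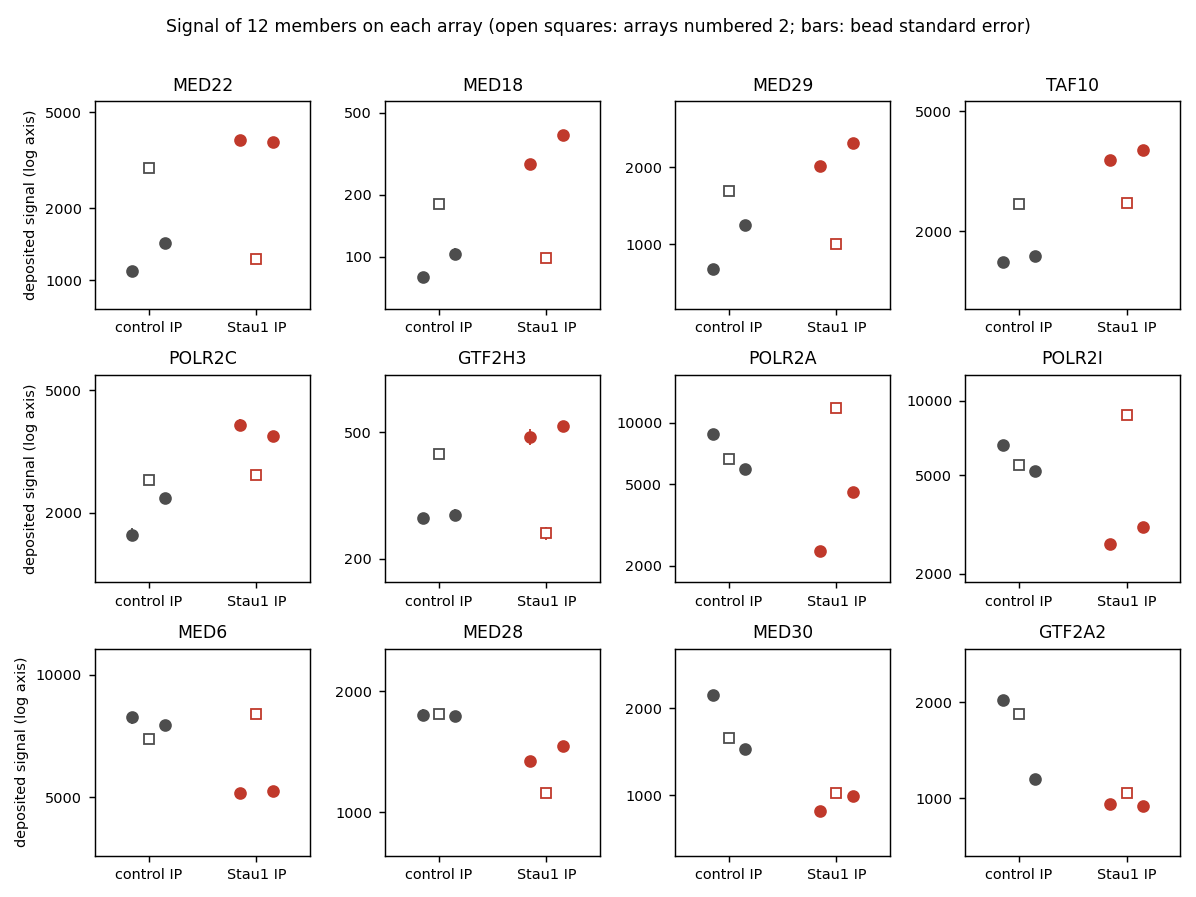
Deposited signal (log axis) of 12 members on each control IP and Stau1 IP array; open squares are the arrays numbered 2 and bars, mostly hidden by the points, are the standard error between beads. For MED22, MED18, MED29 and GTF2H3 the square of control IP 2 lies above the filled controls and that of Stau1 IP 2 lies near or below them, for POLR2A, POLR2I and MED6 the square of Stau1 IP 2 is the highest point, and for MED28, MED30 and GTF2A2 all 3 Stau1 IP arrays lie below all 3 controls.

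Of the 13 targets for RNA polymerase II subunits, 6 were higher and 7 lower in both fits, although 4 other scalings gave 5 and 8 by the labels. POLR2A (chromosome 17), the largest subunit, which carries the C-terminal repeat domain, read 8782, 6625 and 5913 on the control IPs and 2368, 11811 and 4591 on the Stau1 IPs. The array labelled Stau1 IP 2 gave the highest signal and the other Stau1 IP arrays the lowest. The log2 fold change was -0.51 (SE 0.56, adjusted p = 0.888) by the labels and -1.16 (SE 0.34, adjusted p = 0.209) without the arrays numbered 2, and the SD of the Stau1 IPs was 1.09 on the log2 scale beside 0.28 for the controls.
POLR2B, the second-largest subunit, ran the other way, with 645, 851 and 459 on the control IPs and 984, 256 and 1002 on the Stau1 IPs. Its lowest signal was on the array labelled Stau1 IP 2, and its log2 fold change was 0.03 by the labels and 0.59 (SE 0.18, adjusted p = 0.224) without the arrays numbered 2. POLR2D, of the stalk, read 2388, 2833 and 2005 on the control IPs and 3162, 1590.2 and 3354 on the Stau1 IPs and was likewise lowest on that array.
POLR2I (chromosome 19), which aids proofreading, repeated the order of POLR2A with 6598, 5490.1 and 5175 on the control IPs and 2642, 8743 and 3081 on the Stau1 IPs. It fell without the arrays numbered 2, with a log2 fold change of -1.08 (SE 0.12, adjusted p = 0.0287), which is 2.11-fold lower, against -0.50 (SE 0.45, adjusted p = 0.850) by the labels.

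POLR2F, H, K and L are shared with RNA polymerases I and III. POLR2F read 40848, 36697 and 34062 on the control IPs and 23092, 42309 and 23475 on the Stau1 IPs. It fell without the arrays numbered 2, with a log2 fold change of -0.56 (SE 0.07, adjusted p = 0.0355), and by the labels the groups overlapped, with -0.31 (SE 0.20, adjusted p = 0.770). POLR2L separated the groups the other way, with 575, 692 and 524 on the control IPs and 777, 778 and 871 on the Stau1 IPs and log2 fold changes of 0.36 (SE 0.07, adjusted p = 0.246) and 0.33 (SE 0.07, adjusted p = 0.119). Every Stau1 IP array of POLR2L lay above every control. POLR2H had log2 fold changes of -0.30 and -0.49, and POLR2K of 0.04 and 0.06.

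POLR2C (chromosome 16), which forms the assembly core with POLR2J, read 1696, 2546 and 2229 on the control IPs and 3863, 2657 and 3552 on the Stau1 IPs. Each Stau1 IP array was above each control, and the log2 fold change was 0.57 (SE 0.18, adjusted p = 0.441) by the labels and 0.80 (SE 0.16, adjusted p = 0.0921) without the arrays numbered 2. Its partner POLR2J read 529, 434 and 447 on the control IPs and 328, 654 and 317 on the Stau1 IPs. The array labelled Stau1 IP 2 was the highest and the other Stau1 IP arrays the lowest, with -0.70 (SE 0.11, adjusted p = 0.0627) without the arrays numbered 2. POLR2G, which pairs with POLR2D in the stalk, was lower on each Stau1 IP array than on each control, with 3243, 3797 and 3221 on the control IPs and 2984, 2952 and 2948 on the Stau1 IPs, a log2 fold change of -0.24 (SE 0.06, adjusted p = 0.300). Signals of POLR2J, POLR2J3 and POLR2J4 are uncertain, as these near-identical copies may hybridize to the same probes.

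In TFIID, the complex that recognizes the core promoter, and among related TAFs, TAF10 had the largest log2 fold change by the labels. TAF10 (chromosome 11), shared by TFIID and the SAGA coactivator, read 1585, 2465 and 1658 on the control IPs and 3455, 2477 and 3720.1 on the Stau1 IPs. Each Stau1 IP array exceeded each control, though by little between the arrays numbered 2. The log2 fold change was 0.69 (SE 0.19, adjusted p = 0.368) by the labels, and without the arrays numbered 2 it was 1.00 (SE 0.04, adjusted p = 0.0105), a fold of 2.00.
TAF8, the partner of TAF10 within TFIID, read 80.3, 145 and 86.3 on the control IPs and 201, 79.5 and 249 on the Stau1 IPs. It was not well above background on control IP arrays 1 and 3 or on the array labelled Stau1 IP 2, and without the arrays numbered 2 it was at least 1.87-fold higher in the Stau1 IPs (adjusted p = 0.0172). A target under the older symbol TBN, also for this gene, read 121, 157 and 123 on the control IPs and 165, 132 and 183 on the Stau1 IPs. It rose as well without the arrays numbered 2, with a log2 fold change of 0.28 (SE 0.03, adjusted p = 0.0342).
TAF4, a core scaffold of TFIID, read 683, 1353 and 663 on the control IPs and 1029, 307 and 1420.1 on the Stau1 IPs. The lowest signal of TAF4 was on the array labelled Stau1 IP 2 and 1 of the highest on the array labelled control IP 2, so that its log2 fold change was -0.10 by the labels and 0.59 (SE 0.12, adjusted p = 0.0967) without the arrays numbered 2. TAF2 had the same lowest array, with 311, 425 and 246 on the control IPs and 394, 160.5 and 535 on the Stau1 IPs.

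Other TAFs had lower values in the Stau1 IPs. TAF7, which restrains the acetyltransferase of TAF1, read 1171, 1007 and 805 on the control IPs and 607, 776 and 647 on the Stau1 IPs, with a log2 fold change of -0.52 (SE 0.20, adjusted p = 0.562) by the labels and -0.74 (SE 0.20, adjusted p = 0.170) without the arrays numbered 2. TAF12, a histone-fold TAF of both TFIID and SAGA, read 1149, 975 and 771 on the control IPs and 558, 776 and 591 on the Stau1 IPs, with -0.56 (SE 0.23, adjusted p = 0.598) and -0.81 (SE 0.21, adjusted p = 0.159). For both, Stau1 IP arrays 1 and 3 were the lowest and array 2 overlapped the controls or lay close to them.
The target named TAF9L, an older symbol of TAF9B, read 473, 493 and 291 on the control IPs and 277, 179 and 305 on the Stau1 IPs. Its groups did not overlap after normalization, but control IP array 3 lay close to the Stau1 IP arrays, and its log2 fold change was -0.64 (SE 0.19, adjusted p = 0.415). TAF9 read 244, 217 and 140.2 on the control IPs and 146, 121 and 186 on the Stau1 IPs, with -0.38 (SE 0.21, adjusted p = 0.714). TAF1, the largest TAF, stayed near background with 89.0, 116 and 87.6 on the control IPs and 101, 93.7 and 114 on the Stau1 IPs. It was not well above background on control IP arrays 1 and 3, and its log2 fold change by the labels was 0.02. Without the arrays numbered 2 the lower limit of its fold was 1.09, the same as the fitted value. That difference was not called (adjusted p = 0.214). Its retrocopy TAF1L may share probes with it.
Of the 21 TAFs of TFIID and related complexes, 6 were higher and 15 lower by the labels, and 9 and 12 without the arrays numbered 2, where median centring turned the split to 11 higher and 10 lower.

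TFIIA steadies TFIID on the promoter and TFIIB joins it to the polymerase. GTF2A2 (chromosome 15), the small subunit of TFIIA, read 2033, 1845 and 1152 on the control IPs and 958, 1043 and 944 on the Stau1 IPs. Each Stau1 IP array lay below each control, with control IP array 3 nearest, and the log2 fold change was -0.72 (SE 0.22, adjusted p = 0.430) by the labels and -0.79 (SE 0.29, adjusted p = 0.314) without the arrays numbered 2. GTF2B, which is TFIIB, read 885, 1000.4 and 641 on the control IPs and 958, 654 and 961 on the Stau1 IPs, and its groups overlapped, with log2 fold changes of 0.0052 and 0.14. The small value by the labels changed sign under neqc, quantile normalization, median centring and another spline reference. GTF2A1 was detected on 1 array.

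All 4 subunits of TFIIE and TFIIF, which load and stabilize the polymerase at the promoter, were lower in the Stau1 IPs in both fits, with medians of -0.34 and -0.59, although GTF2E1 turned higher without the arrays numbered 2 under median centring. GTF2E2, the small subunit of TFIIE, read 5570.0, 5175 and 4588 on the control IPs and 3023, 4700.1 and 3294 on the Stau1 IPs. Its lowest signals were on Stau1 IP arrays 1 and 3. It fell without the arrays numbered 2, with a log2 fold change of -0.73 (SE 0.09, adjusted p = 0.0391), and by the labels the value was -0.53 (SE 0.17, adjusted p = 0.443).
GTF2F2, the small subunit of TFIIF, read 2272, 1865 and 1316 on the control IPs and 1223, 1069 and 1156 on the Stau1 IPs. Each Stau1 IP array lay below each control, with -0.62 (SE 0.20, adjusted p = 0.449) by the labels and -0.65 (SE 0.29, adjusted p = 0.411) without the arrays numbered 2. GTF2F1, its large partner, did not share that order, with 2597, 2136 and 3026 on the control IPs and 1795, 3926 and 2367 on the Stau1 IPs. The array labelled Stau1 IP 2 was its highest, and its log2 fold change was -0.07 by the labels and -0.54 without the arrays numbered 2. GTF2E1 had -0.15 and -0.08.

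TFIIH opens the promoter and also serves nucleotide excision repair. GTF2H5, its smallest subunit, read 2014, 1725 and 1307 on the control IPs and 1176, 790.3 and 1192 on the Stau1 IPs. The groups did not overlap, and the log2 fold change was -0.65 (SE 0.18, adjusted p = 0.384) by the labels and -0.57 (SE 0.23, adjusted p = 0.353) without the arrays numbered 2. GTF2H3, the p34 subunit, rose without the arrays numbered 2, with a log2 fold change of 0.55 (SE 0.03, adjusted p = 0.0138), and it read 268, 426 and 275 on the control IPs and 483, 241 and 522 on the Stau1 IPs. On the deposited scale the array labelled control IP 2 lay nearer the high Stau1 IP arrays. The array labelled Stau1 IP 2 was the lowest there. After normalization control IP array 3 was the lowest, at 8.62, and the array labelled Stau1 IP 2 was at 8.65. The array labelled control IP 2 lay 0.54 of the way from control IP arrays 1 and 3 to Stau1 IP arrays 1 and 3.
GTF2H2, the p44 subunit, read 532, 293 and 196 on the control IPs and 227, 169 and 270.2 on the Stau1 IPs. Control IP array 1 was far above the rest, and the log2 fold change was -0.47 (SE 0.34, adjusted p = 0.808). Its copies lie close together in the genome and may share probes. GTF2H1 and GTF2H4 had -0.11 and 0.25 by the labels and 0.10 and 0.11 without the arrays numbered 2.

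Outside the general machinery proper, GTF2IRD2B of the TFII-I family had the second-lowest p of the members by the labels. It read 259, 309.7 and 252 on the control IPs and 354, 300.5 and 394 on the Stau1 IPs. On the deposited scale control IP array 2 exceeded the array labelled Stau1 IP 2, but after normalization each Stau1 IP array lay above each control. The log2 fold change was 0.31 (SE 0.05, adjusted p = 0.184) by the labels and 0.26 (SE 0.05, adjusted p = 0.0686) without the arrays numbered 2. GTF2IP1, a pseudogene copy of GTF2I, read 464, 503 and 349 on the control IPs and 408, 278 and 506 on the Stau1 IPs, and its groups overlapped, with -0.13 and -0.05. Members of this family have near-identical copies in the same region, so which copy a signal came from is uncertain.
Of the SL1 TAFs, TAF1C read 764, 1083 and 1000.4 on the control IPs and 1280.1, 859.6 and 1489 on the Stau1 IPs, with log2 fold changes of 0.27 (SE 0.14, adjusted p = 0.706) and 0.44 (SE 0.11, adjusted p = 0.145). It did not pass the detection threshold on control IP array 2 in spite of a bright signal. TAF1B read 368, 327 and 234 on the control IPs and 223, 197 and 246 on the Stau1 IPs. All 3 of its Stau1 IP values lay below those of the controls after normalization, and the log2 fold change was -0.39 (SE 0.16, adjusted p = 0.575).

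**Figure D3:**
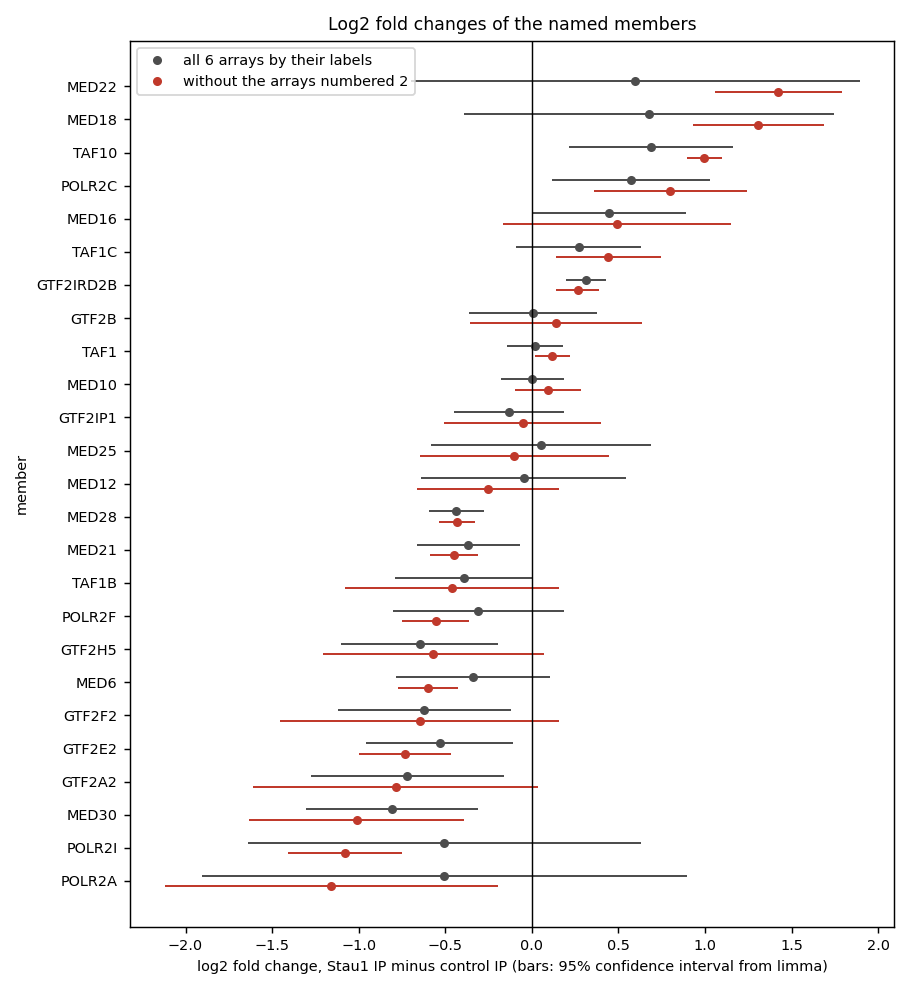
Log2 fold change of Stau1 IP over control IP (x axis) for the members named by a fixed rule (y axis), with all 6 arrays by their labels (grey) and without the arrays numbered 2 (red); bars are 95% confidence intervals from limma, not adjusted for the number of targets. MED22, TAF10, MED6, POLR2F and POLR2I have narrower red bars farther from 0, MED28 has almost the same value in both fits, and the red points of MED18 and TAF1 are fitted values against controls that were not well above background.

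Each array numbered 2 was then set against the 4 others. Of the 13 members called without those arrays, the array labelled Stau1 IP 2 lay nearer control IP arrays 1 and 3 than Stau1 IP arrays 1 and 3 for 10 (76.9%), a share close to the 77.4% of all called targets. The array labelled control IP 2 lay nearer Stau1 IP arrays 1 and 3 for 4 of the 13 (30.8%), below the 55% of all called targets, a difference that was not tested. Both held for MED22, MED23 and GTF2H3, which had risen. Among the 7 that fell, the array labelled control IP 2 lay nearer the Stau1 IPs for 1 and the array labelled Stau1 IP 2 nearer the controls for 5. Over the 62 members detected on all 6 arrays, the array labelled Stau1 IP 2 held the highest normalized level of 22 (35.5%). It held the lowest of 20 (32.3%), and among all targets detected on all 6 arrays these shares were 27.5% and 27.3%. The array labelled control IP 2 held the highest of 2 (3.23%) and the lowest of 1 (1.61%), beside 9.96% and 8.16% of all. Control IP array 1 held the highest of 21 (33.9%) and the lowest of 8 (12.9%), beside 20.4% and 24.4% of all. These differences in share were not tested.

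**Figure D4:**
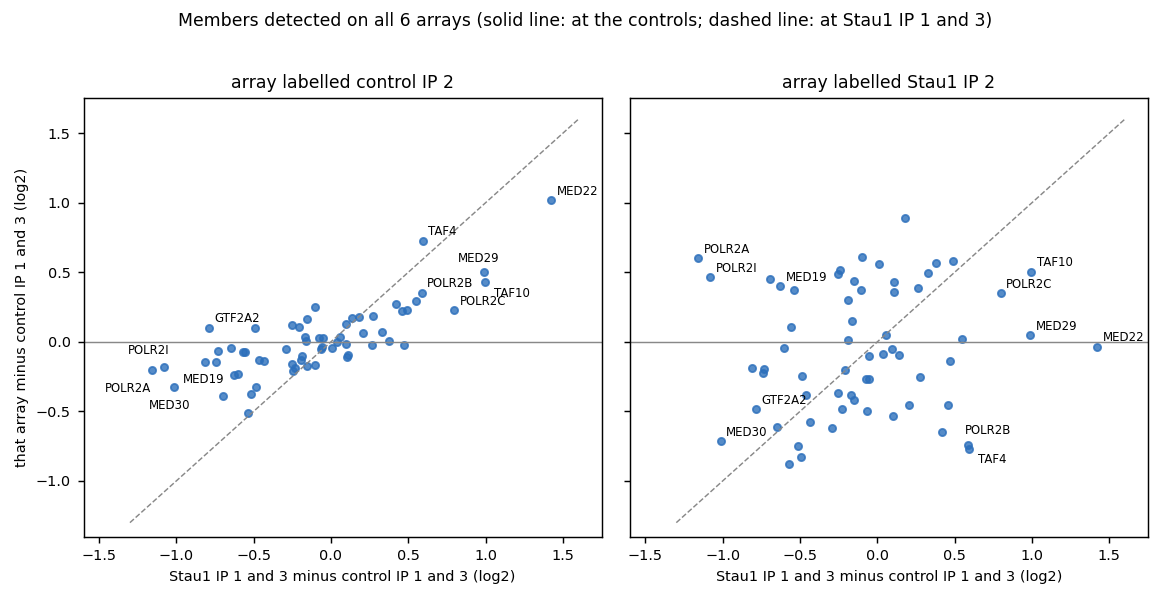
Normalized log2 level on the array labelled control IP 2 (left) and on the array labelled Stau1 IP 2 (right), each minus the mean of control IP arrays 1 and 3 (y axis), against the mean of Stau1 IP arrays 1 and 3 minus the same controls (x axis), for the 62 members detected on all 6 arrays. The solid line marks no difference from the controls and the dashed line the level of Stau1 IP arrays 1 and 3; on the left most points slope upward between the lines, and on the right POLR2A and POLR2I lie above the solid line at the left edge while POLR2B and TAF4 lie below it.

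Genes that work with these complexes under other names were looked up from a list chosen by name. Of its 32 on the array, 10 were higher and 22 lower by the labels, with 1 and 5 at an unadjusted p under 0.05, beside 3.6% and 5.17% of all targets and 9.31% and 12.5% of those detected on all 6 arrays, and 0 at an adjusted p of 0.05 or by the fold rule. Of the 5 lower genes, 3 form the CDK-activating kinase of TFIIH. CCNH read 3224, 2492 and 1835 on the control IPs and 1234, 1258 and 1324 on the Stau1 IPs, with a log2 fold change of -0.93 (SE 0.20, adjusted p = 0.274). MNAT1 read 1517, 1134 and 872 on the control IPs and 517, 664 and 592 on the Stau1 IPs, with -0.88 (SE 0.25, adjusted p = 0.385), and CDK7 read 478, 498 and 433 on the control IPs and 349, 235 and 391 on the Stau1 IPs, with -0.47 (SE 0.08, adjusted p = 0.210). In all 3 genes each Stau1 IP array lay below each control. The others were TBPL1, a relative of the TATA-binding protein, at -0.48, and RPAP3, which helps assemble the polymerase. RPAP3 did not pass the detection threshold on any control IP array in spite of signals of 303, 268 and 192, so no fold is given. COBRA1, a subunit of the pausing factor NELF, was the higher one, at 0.33. TBP itself read 1504, 1604 and 1649.6 on the control IPs and 1743, 1321 and 1914 on the Stau1 IPs, and its groups overlapped, with 0.008 by the labels.
Without the arrays numbered 2, BTAF1, which removes TBP from DNA, rose with a log2 fold change of 0.40 (SE 0.04, adjusted p = 0.0215). Of the 32, 6 were lower at an adjusted p under 0.05. Among all targets 3.17% were higher and 2.06% lower, and among those detected on all 6 arrays 9.32% and 6.95%. TCEA2 was 1 of the 6. It did not pass the detection threshold on any Stau1 IP array in spite of signals of 550, 1154 and 660, so no fold is given. The other 5 were DRAP1, ELL3, the TFIIH helicase ERCC3, the NELF subunit RDBP and the C-terminal domain phosphatase SSU72, with log2 fold changes from -1.09 for DRAP1 to -0.40 for ELL3. RDBP read 1624, 1343 and 1454 on the control IPs and 816, 2372 and 923 on the Stau1 IPs, and it was highest on the array labelled Stau1 IP 2.

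The array also carried 7 targets for members under older symbols that the rule did not take. MED1, the Mediator subunit bound by nuclear receptors, was there as PPARBP, which read 127, 185 and 183 on the control IPs and 149.8, 113 and 145 on the Stau1 IPs, with a log2 fold change of -0.26 (SE 0.14, adjusted p = 0.701). MED7 was there as CRSP9, with -0.41 and -0.61. CRSP6 and THRAP5, older names of MED17 and MED16, had log2 fold changes of 0.09 and 0.07 by the labels. CRSP2 and GRINL1A, older names of MED14 and POLR2M, were not detected on any array of the control IPs and of the Stau1 IPs, respectively, and no fold is given for them. TBN was the only one of the 7 at an adjusted p under 0.05, and only without the arrays numbered 2. THRAP5 and MED16 name the same gene and differed in size, with 0.07 against 0.45.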

How the data were processed

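Arrays were grouped by the transfection in their labels, and the members and lists were chosen with earlier results of these data known. The authors hybridized RNA from 3 control IPs and 3 Stau1 IPs on HumanWG-6 BeadChips and deposited, for 37879 targets, the BeadStudio signal intensity with no background subtraction or normalization, the standard error between beads on that intensity scale, and the number of beads as a count. The deposited detection p-value places a target within the negative controls of the same array. For some targets it did not follow the printed signal, and the reason was not tested. TAF1C had a detection p of 0.068 at 1083 on control IP array 2. POLR2K had 0.021 at 121 on control IP array 1. Probes of a target had been combined by the authors. The table names no genome build, so no coordinates are given.

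The steps named in the methods were rebuilt with limma 3.58.1 and mgcv 1.9.3 under R 4.3.3, in place of the authors' software. As background, the median of the 200 signals whose detection p lay nearest 0.5 was subtracted. A variance stabilizing transformation was fitted to the bead SD over 500 bins, without the lowest 33.3% of signals. A monotone spline of 10 knots then brought each array to the scale of control IP array 2. The fit without the arrays numbered 2 used levels already brought to that scale, so it still depends on control IP array 2. All 37879 targets were fitted with lmFit and eBayes of limma, with no filter on dim targets, by the labels and without both arrays numbered 2, and p-values were adjusted over all targets by the Benjamini-Hochberg method. Where no array of a group detected a target, its fold is printed as a lower limit, taken against the higher of its own level and the lowest detected level, or is left out. The limit allows for background and not for the spread between arrays. The steps were tested on simulated data. Python 3.11.15 with matplotlib 3.10.9 drew the figures.

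The named members were, per complex, the target with the highest mean level and the one with the largest fold change by the labels (detected on at least 3 arrays), the 6 largest fold changes without the arrays numbered 2, any member past the threshold, and POLR2A, MED1, MED12, TAF1 and GTF2B. Other members were described after their values were seen. The alternatives were neqc, quantile normalization, median centring, log2 of the background-subtracted signal plus 16, a detection filter, the methods' t-test, eBayes with trend, the replicate number as a block, and leaving out arrays. A spline reference of control IP array 3 was added after seeing the data. An exchange of the arrays numbered 2 was not computed.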

Additional observations from a re-analysis of the deposited data

How the results depend on the processing

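By the labels, 0 members passed the fold rule and 0 an adjusted p of 0.05 under all 16 alternatives except leaving out both arrays numbered 2, which gave 1 and 13. CCNH was the only gene of the other polymerase II machinery past the fold rule, under neqc alone (1 of 32). Without the arrays numbered 2, the fold rule called 1 member. It called 3 under neqc (MED22, POLR2I and TAF10) and 2 under median centring (MED18 and MED22). With log2 of the signal plus 16 it called 3 (MED18, MED22 and TAF8). By adjusted p over all members, the counts that rose and fell were 6 and 7. In other settings the calls need not be the same members. Under neqc the counts were 2 and 1, and under median centring 10 and 9. The spline reference control IP array 3 gave 5 and 9, and a filter on detection gave 9 and 12. Log2 of the signal plus 16, the methods' t-test and the replicate block gave 0 and 0, and leaving out 1 array gave 0 to 16 and 0 to 23. All 13 members kept their direction under all 13 alternatives to the fit without the arrays numbered 2. The detection filter, the methods' t-test, eBayes with trend and the replicate block do not change a member's fold change here. They could not reverse a direction, and the 13 were chosen from these same arrays, so a kept direction is not independent support. Why the counts differed between settings was not tested.

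Whether the replicate numbers pair the arrays could not be decided. For targets detected on all 6 arrays, deviations within each group were compared between same-numbered arrays, and their correlations were -0.455, -0.773 and -0.385. The deviations within a group depend on each other, and the labels of the arrays numbered 2 may be exchanged. These values therefore do not settle pairing, and the replicate block is given only as an alternative. The median log2 fold change of the members was -0.0045 under neqc and -0.10 with log2 of the signal plus 16 by the labels. Without the arrays numbered 2 it was -0.0062 and -0.087 under these, -0.10 with the filter on detection, and -0.053 to -0.0019 with 1 array left out.

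Small values changed sign. By the labels, MED10 was -0.058 under median centring, -0.0064 with log2 of the signal plus 16, -0.029 with the other spline reference, and -0.051 to 0.095 with 1 array or both arrays numbered 2 left out. GTF2B was -0.025 under neqc, -0.014 under quantile normalization, -0.066 under median centring, -0.027 with the other spline reference, and -0.14 to 0.14 with arrays left out in the same way. MED25 was -0.10 without both arrays numbered 2. With arrays left out so, MED25 ranged from -0.18 to 0.27, MED12 from -0.29 to 0.085, and TAF1 from -0.020 to 0.12. Without the arrays numbered 2, GTF2IP1 was 0.046 under median centring, and with 1 further array left out it ranged from -0.26 to 0.15, MED25 from -0.30 to 0.093 and GTF2B from -0.10 to 0.38. For the 7 members undetected on every array, no difference was detectable over background.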

Other observations

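Control IP array 1 stood apart from the other arrays for a few members, which were picked after their values had been seen. TAF6L, a TAF of the SAGA coactivator, read 743, 1230.4 and 1508 on the control IPs and 1619, 1683 and 1549 on the Stau1 IPs, and its lowest signal was on control IP array 1. MED16 had the same lowest array. GTF2H2, POLR2J3 and MED30 had their highest signal there, and POLR2J3 read 2463, 1871 and 1447 on the control IPs and 1693, 1453 and 1752 on the Stau1 IPs. TAF6 read 274, 342 and 209 on the control IPs and 279.9, 437 and 381 on the Stau1 IPs, with its highest signal on the array labelled Stau1 IP 2 and a log2 fold change of 0.36 (SE 0.24, adjusted p = 0.787) by the labels.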
